A study of Saccharomyces cerevisiae with 22 samples.

Results

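The shikimate pathway of budding yeast makes the aromatic amino acids, and 10 of its genes are described here: *ARO3*, *ARO4*, *ARO1*, *ARO2*, *ARO7*, *TRP2*, *TRP3*, *TRP4*, *TRP1* and *TRP5*. They were listed by systematic name from the 6696 genes of the count files, of which 6005 are protein-coding. The list was made with earlier results of these data known. Aro3 and Aro4 are isozymes that condense erythrose 4-phosphate and phosphoenolpyruvate to DAHP, the first intermediate, the pentafunctional Aro1 carries DAHP through the middle of the pathway, and Aro2 makes chorismate. Chorismate mutase, Aro7, opens the branch to phenylalanine and tyrosine, while the Trp enzymes lead from chorismate to tryptophan. Several of these genes are known targets of Gcn4, the transcriptional activator of amino acid biosynthesis in yeast.

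The study asked which mRNAs autophagy brings to the vacuole, the degradative organelle of yeast, and how that relates to translation. Cells were grown in rich medium (YPD) and were either growing or treated with 0.2 µM rapamycin, an inhibitor of TORC1 that induces autophagy. RNA-Seq was made of total lysates and of vacuole fractions isolated by flotation, from cells labelled *rny1*Δ (natNT2 cassette in *RNY1*, the vacuolar ribonuclease) and *rny1*Δ *atg2*Δ (also without Atg2, which autophagosome formation needs). The strain background is X2180-1a in the labels. Each strain gave 1 library per fraction of growing cells and 2 per fraction after 3 h of rapamycin, 12 in all. Cells labelled WT gave RNA-Seq and ribosome footprints from the same lysates, with 2 growing libraries and 1 library at each of 1 h, 2 h and 3 h of rapamycin for each assay, 10 in all. The study's reporting summary describes sequencing replicates as independent biological ones. Which lysate and vacuole fraction share a culture is not given, nor is whether replicate numbers of growing WT libraries match across assays.

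The libraries of the vacuole experiment held 9156333 to 22097523 counts on genes, except replicate 2 of the rapamycin-treated *rny1*Δ *atg2*Δ vacuole fraction, which held 535462. In that library 3 counts are worth 5.60 CPM (read counts scaled to the same library size, TMM-normalised in all levels given further on), and *ARO7* had 2 counts and *TRP4* 9. WT RNA-Seq held 10361721 to 14917164 counts and footprints 2657480 to 20413301. *ATG2* had 0 to 79 counts in libraries labelled *rny1*Δ *atg2*Δ against 851 to 1448 in those labelled *rny1*Δ. *RNY1* had 247 to 418 counts in libraries labelled *rny1*Δ and 9 to 439 in those labelled *rny1*Δ *atg2*Δ, so its counts were not near 0. Where within *RNY1* these reads lie cannot be read from a count table, so *rny1*Δ and *rny1*Δ *atg2*Δ are used throughout as the labels of the libraries, and every direction between strains rests on those labels. The 4 mating type alpha genes checked summed to 2109 to 6587 CPM over all libraries and the 6 mating type a genes to 3.88 to 73.9 CPM, although the labelled background is X2180-1a. The strain list of the study places the *rny1*Δ and *rny1*Δ *atg2*Δ strains in X2180-1B. It gives X2180-1a itself as mating type a. In WT RNA-Seq the alpha genes summed to 2295 to 4339 CPM and the a genes to 11.5 to 33.5 CPM, a mismatch that was not resolved. *TRP1*, often deleted as a selection marker in laboratory strains, had counts in every library, from 27 in the shallow one to 1544. *URA3*, *HIS3*, *LEU2*, *LYS2*, *MET17* (listed as *MET15*) and *ADE2* also had counts in every library, at least 7 in each. None of these 7 marker genes was at 0 in any library.

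Per kb of the coding length counted for WT libraries, which was used for all libraries, the mRNAs of growing cells ranged over more than an order of magnitude. In the growing *rny1*Δ total lysate *ARO4* stood highest with 570 CPM per kb, before *ARO2* with 415, *TRP5* with 249 and *ARO3* with 216. *ARO1* had 139 CPM per kb, *TRP2* 126 and *TRP3* 96.8. The lowest 3 were *TRP4* with 55.5, *TRP1* with 50.3 and *ARO7* with 50.2 CPM per kb, and these 3 stood in another order in the growing *rny1*Δ *atg2*Δ lysate (52.8, 55.9 and 56.0 CPM per kb). In WT growing cells *ARO4* was again highest (821 and 826 CPM per kb) and *ARO7* lowest (48.9 and 46.1 CPM per kb).

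Vacuolar enrichment asks whether an mRNA is more represented in vacuoles after rapamycin than its level in the cell accounts for. It is the log2 ratio of vacuole fraction to total lysate after rapamycin minus the same ratio in growing cells. It is relative to the other mRNAs of each library, and in bulk samples fewer cells with an mRNA and less mRNA per cell cannot be told apart. An mRNA was called where this value was at least 1 in size with an edgeR adjusted p under 0.01. In *rny1*Δ, all 10 mRNAs of the pathway had a positive value, with a median of 1.08 against 0.08 over all 5753 mRNAs tested. 6 of the 10 were called vacuole enriched and 0 vacuole depleted, where 12.1% of all mRNAs tested were called enriched and 7.98% depleted. The 6 were *TRP4*, *ARO2*, *TRP3*, *ARO7*, *TRP2* and *ARO4*. The study had already reported preferential vacuolar delivery of amino acid biosynthesis mRNAs from these data, so this count is not independent of that report.

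In *rny1*Δ *atg2*Δ the median of the 10 was 0.02, beside 0.03 over all mRNAs tested. Here 2 of the 10 were called enriched, *ARO1* and *TRP5*, where 2.26% of all mRNAs tested were called enriched. The difference between the strains was called for 4 mRNAs, *ARO2*, *TRP4*, *ARO7* and *TRP3*, all higher in *rny1*Δ, where 9.26% of all mRNAs tested were called higher in this comparison and 8.03% lower. Without replicate 1 of the rapamycin-treated *rny1*Δ *atg2*Δ vacuole fraction, which leaves the shallow library alone, 0 of the 4 differences was called (edgeR adjusted p = 0.0136 for *ARO2*, 0.0602 for *ARO7*, 0.0294 for *TRP3* and 0.0189 for *TRP4*), while all 4 were called without the shallow library. All 10 mRNAs passed the filter on low counts. mRNAs encoded in mitochondria took 0.104% to 0.127% of counts in the rapamycin vacuole fractions of *rny1*Δ and 0.301% to 0.433% in those of *rny1*Δ *atg2*Δ. In the growing vacuole fractions they took 0.0058% and 0.0054%. Growing lysates had 0.277% and 0.306%, and rapamycin lysates 1.40% to 1.95% and 1.37% to 1.44%. The part of such RNA in the enrichment values and in the difference between strains was not tested.

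**Figure D1:**
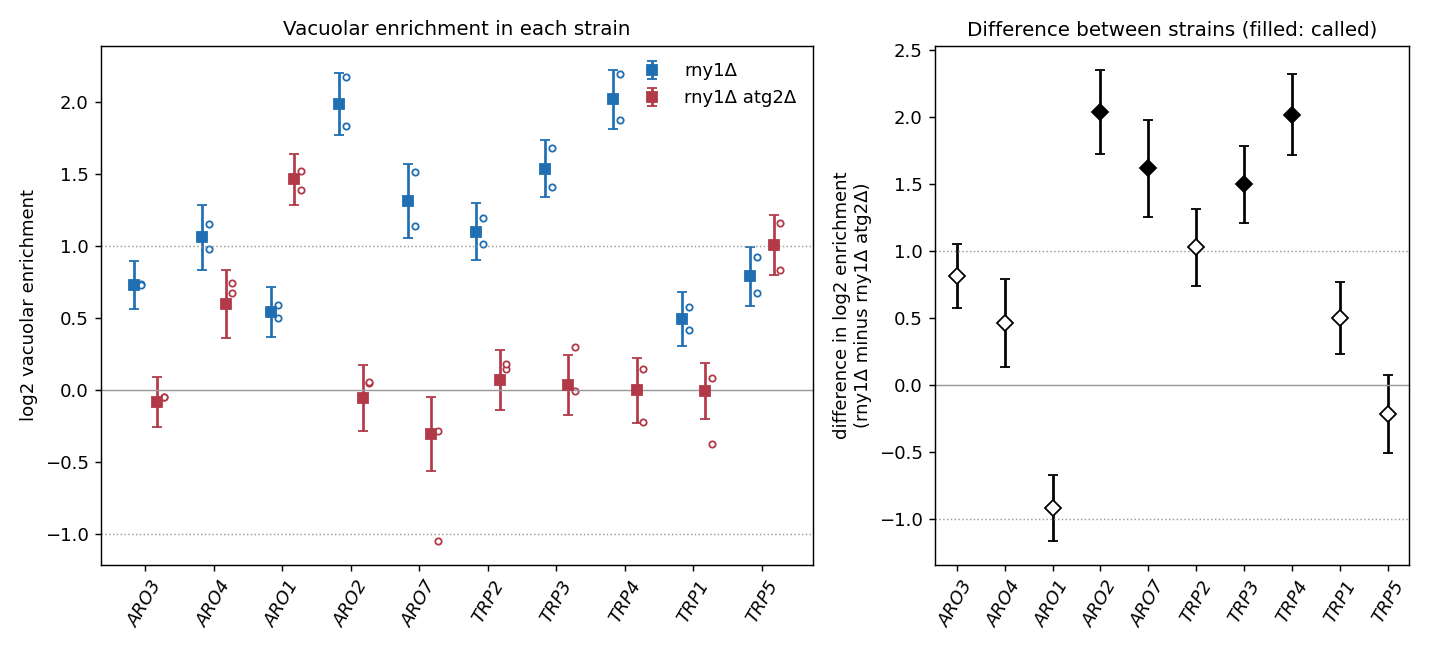
Left, log2 vacuolar enrichment of each mRNA in *rny1*Δ (blue) and *rny1*Δ *atg2*Δ (red), with squares and bars for the edgeR estimate ± SE and open circles for the values from each replicate pair of rapamycin libraries; dotted lines mark 1 and -1. Right, the difference between strains ± SE, filled where called: *ARO2*, *ARO7*, *TRP3* and *TRP4* lie above 1, while *ARO1* lies at -0.92.

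*ARO3* (YDR035W, R64 chromosome IV, 521816 to 522928) encodes the DAHP synthase inhibited by phenylalanine. In *rny1*Δ it had 233 CPM in the growing total lysate and 237 and 227 CPM after rapamycin, while its vacuole fraction level was 192 CPM growing and 323 and 309 CPM after rapamycin. Both rapamycin vacuole libraries thus lay above every total lysate of that strain. The enrichment was 0.73 ± 0.17 (SE) on the log2 scale, under the size threshold (edgeR adjusted p = 0.00173). Cells labelled *rny1*Δ *atg2*Δ had 225, 196 and 218 CPM of *ARO3* in the growing and the 2 rapamycin lysates and 183, 154 and 171 CPM in the vacuole fractions. There every vacuole fraction lay below every lysate, and the enrichment was -0.09 ± 0.17.

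*ARO4* (YBR249C, chromosome II, 716882 to 717994) encodes the DAHP synthase inhibited by tyrosine. Its level in *rny1*Δ total lysates was 617 CPM growing and 137 and 114 CPM after rapamycin, and in vacuole fractions 516 CPM growing and 226 and 213 CPM after rapamycin. Growing libraries were the highest in both fractions. The enrichment of 1.06 ± 0.23 was called (edgeR adjusted p = 0.000979) but lay close to the threshold: with DESeq2's size factors it was 0.97 and with correction for gene length 0.87, and it was also under 1 without total replicate 2, vacuole replicate 1 or vacuole replicate 2 of *rny1*Δ (0.93, 0.87 and 0.97). Libraries of *rny1*Δ *atg2*Δ had 571 CPM of *ARO4* in the growing lysate and 90.5 and 117 CPM in the rapamycin lysates, beside 501, 126 and 171 CPM in the vacuole fractions. The enrichment there was 0.59 ± 0.24, and the difference between strains of 0.46 ± 0.33 was not called (edgeR adjusted p = 0.285).

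*ARO1* (YDR127W, chromosome IV, 704484 to 709250) is the longest of the genes, with 1579 counted codons, and its protein catalyses the steps between DAHP and the substrate of chorismate synthase. It was the mRNA of the pathway with the highest enrichment in cells labelled without Atg2. Its level in *rny1*Δ *atg2*Δ was 633 CPM in the growing lysate and 427 and 435 CPM in the rapamycin lysates, but 645 CPM in the growing and 1245 and 1161 CPM in the rapamycin vacuole fractions. In *rny1*Δ the rapamycin vacuole fractions held 747 and 719 CPM, the rapamycin lysates 535 and 485 CPM, and the growing libraries 656 CPM (total) and 647 CPM (vacuole). The enrichment was 1.46 ± 0.18 in *rny1*Δ *atg2*Δ (edgeR adjusted p = 3.06e-05) and 0.54 ± 0.17 in *rny1*Δ (edgeR adjusted p = 0.016). The difference of -0.92 ± 0.25, lower in *rny1*Δ, had an edgeR adjusted p of 0.00946 but did not reach the size threshold.

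*ARO2* (YGL148W, chromosome VII, 226399 to 227529), the chorismate synthase gene, is one of the mRNAs that the study itself followed up, so its values here are not independent of that choice. In *rny1*Δ *ARO2* had 457 CPM in the growing total lysate and 95.4 and 72.2 CPM after rapamycin. The vacuole fraction held as much in growing cells, 458 CPM, but 339 and 325 CPM after rapamycin. Both fractions of *rny1*Δ *atg2*Δ were low after rapamycin, with 53.7 and 65.9 CPM in lysates and 59.0 and 72.9 CPM in vacuole fractions, against 443 and 472 CPM in the growing libraries. Rapamycin vacuole libraries therefore lay far above rapamycin lysates in *rny1*Δ and overlapped with them in *rny1*Δ *atg2*Δ. The enrichment was 1.98 ± 0.22 in *rny1*Δ, 3.95-fold (edgeR adjusted p = 2.76e-06), and -0.06 ± 0.23 in *rny1*Δ *atg2*Δ. The difference was 2.04 ± 0.32 (edgeR adjusted p = 0.000312).

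*ARO7* (YPR060C, chromosome XVI, 674861 to 675631), for chorismate mutase, had the fewest counts of the 10 in every rapamycin library. In *rny1*Δ lysates it had 37.2 CPM growing and 6.22 and 4.42 CPM (63 and 39 counts) after rapamycin, and in vacuole fractions 36.1 CPM growing and 13.5 and 12.5 CPM after rapamycin. Both rapamycin vacuole libraries held more than both rapamycin lysates and less than the growing libraries. The order of the fractions after rapamycin was the other way in *rny1*Δ *atg2*Δ, with 9.09 and 8.95 CPM in lysates and 7.49 and 4.29 CPM in vacuole fractions, the last from 2 counts. Enrichment was 1.31 ± 0.26 in *rny1*Δ (edgeR adjusted p = 0.000464) and -0.31 ± 0.26 in *rny1*Δ *atg2*Δ. The difference of 1.62 ± 0.36 was called (edgeR adjusted p = 0.00313), but neither it nor the enrichment was called by DESeq2 (adjusted p = 0.0871 and 0.0359) or with correction for gene length (edgeR adjusted p = 0.0466 and 0.013).

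In the tryptophan branch, Trp2 and Trp3 form anthranilate synthase, and Trp3 also carries the indole-3-glycerol phosphate synthase. *TRP2* (YER090W, chromosome V, 337949 to 339472) had 188 CPM in the growing *rny1*Δ lysate, 113 and 94.2 CPM in the rapamycin lysates, 189 CPM in the growing vacuole fraction and 229 and 217 CPM in the rapamycin vacuole fractions. *TRP3* (YKL211C, chromosome XI, 36699 to 38153) had 138, 92.9 and 72.9 CPM in these lysates and 136, 244 and 231 CPM in the vacuole fractions. For both mRNAs the rapamycin vacuole libraries were the highest and the rapamycin lysates the lowest libraries of *rny1*Δ. Where *atg2*Δ was added, *TRP2* had 83.4 and 101 CPM in rapamycin lysates and 88.3 and 109 CPM in rapamycin vacuole fractions, and *TRP3* 69.1 and 71.5 CPM beside 73.9 and 94.3 CPM. The ranges of *TRP2* overlapped between the fractions, and those of *TRP3* did not. The growing libraries of that strain had 182 (total) and 174 CPM (vacuole) of *TRP2* and 124 and 133 CPM of *TRP3*.

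*TRP3* was called enriched in *rny1*Δ with 1.53 ± 0.20 (edgeR adjusted p = 1.2e-05), had 0.03 ± 0.21 in *rny1*Δ *atg2*Δ and was called for the difference with 1.5 ± 0.29 (edgeR adjusted p = 0.00109). *TRP2* was called enriched in *rny1*Δ with 1.1 ± 0.20 (edgeR adjusted p = 0.000256), though its value was under 1 without total replicate 2 (0.98) or vacuole replicate 1 (0.91) of that strain. Its enrichment in *rny1*Δ *atg2*Δ was 0.07 ± 0.21. The difference for *TRP2*, 1.03 ± 0.29, missed the call by its p-value (edgeR adjusted p = 0.0117) and was called where every library had to hold at least 10 counts (1.20, edgeR adjusted p = 0.00586).

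*TRP4* (YDR354W, chromosome IV, 1184747 to 1185889), for anthranilate phosphoribosyltransferase, had the highest enrichment of the 10 in *rny1*Δ. It had 61.7 CPM in the growing lysate and 30.3 and 23.4 CPM in the rapamycin lysates, but 56.4 CPM in the growing and 101 and 98.0 CPM in the rapamycin vacuole fractions. Rapamycin lysates of *rny1*Δ *atg2*Δ had 18.0 and 22.1 CPM and rapamycin vacuole fractions 20.3 and 19.3 CPM, within the range of the lysates, against 58.7 and 59.9 CPM in growing libraries. The enrichment was 2.02 ± 0.21 in *rny1*Δ, 4.04-fold (edgeR adjusted p = 1.46e-06), -0.003 ± 0.23 in *rny1*Δ *atg2*Δ, and the difference 2.02 ± 0.30 (edgeR adjusted p = 0.000271).

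*TRP1* (YDR007W, chromosome IV, 461842 to 462516), for phosphoribosylanthranilate isomerase, was the one mRNA of the 10 with a positive change in the total lysates of both strains after rapamycin. In *rny1*Δ it had 32.4 CPM growing and 67.8 and 59.5 CPM after rapamycin in lysates, and 38.9 CPM growing and 108 and 107 CPM after rapamycin in vacuole fractions. Lysates of *rny1*Δ *atg2*Δ went from 36.1 CPM growing to 74.5 and 78.9 CPM after rapamycin, with 34.4 CPM in the growing and 75.2 and 57.9 CPM in the rapamycin vacuole fractions. All rapamycin libraries of both strains lay above all growing ones. The enrichment of 0.49 ± 0.19 in *rny1*Δ (edgeR adjusted p = 0.0382) and -0.01 ± 0.19 in *rny1*Δ *atg2*Δ was not called in either strain, and in *rny1*Δ it was -0.02 with correction for gene length.

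*TRP5* (YGL026C, chromosome VII, 446412 to 448535) encodes tryptophan synthase, the last enzyme of the branch. In *rny1*Δ it had 522 CPM growing and 430 and 345 CPM after rapamycin in lysates, and 657 CPM growing and 860 and 824 CPM after rapamycin in vacuole fractions. With the *atg2*Δ label it had 485 CPM growing and 283 and 336 CPM after rapamycin in lysates, and 594 CPM growing and 777 and 733 CPM after rapamycin in vacuole fractions. Vacuole fractions were above lysates in both strains, before and after rapamycin. Enrichment was 0.79 ± 0.20 in *rny1*Δ, under the size threshold (edgeR adjusted p = 0.0042), and 1.00 ± 0.21 in *rny1*Δ *atg2*Δ (edgeR adjusted p = 0.00346). The latter was 0.99 with DESeq2's size factors and 0.95 with correction for gene length, with neither called, and it lost its call when any of 5 single libraries was left out (0.89 to 1.04). With correction for gene length *TRP5* was called in *rny1*Δ instead (1.02, edgeR adjusted p = 0.00125). The difference between strains was -0.21 ± 0.29 (edgeR adjusted p = 0.602).

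**Figure D2:**
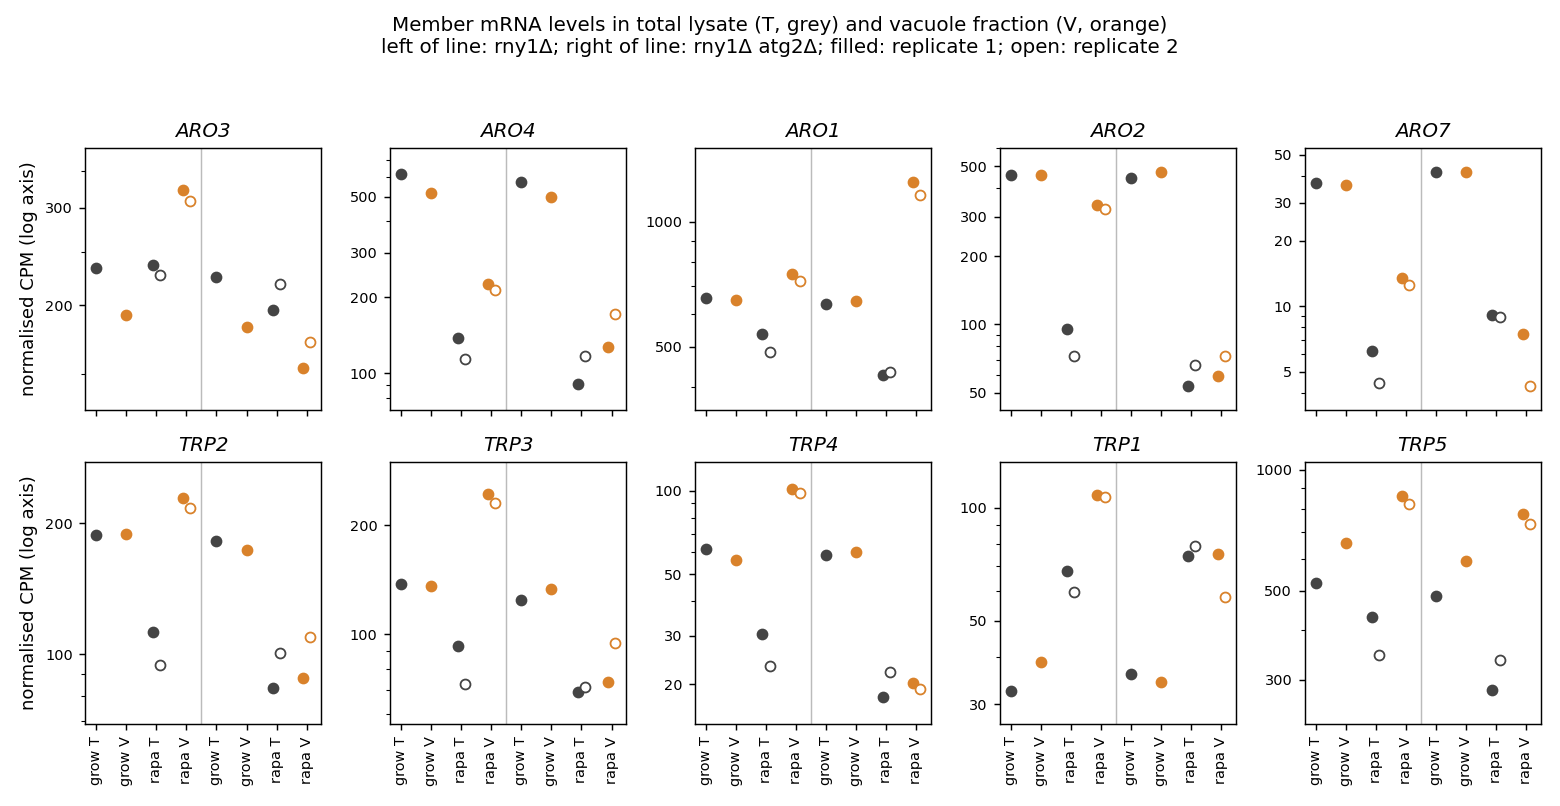
Level of each mRNA (TMM-normalised CPM, log axis, a scale of its own in each panel) in total lysate (grey) and vacuole fraction (orange) of growing and rapamycin-treated cells, *rny1*Δ left and *rny1*Δ *atg2*Δ right of the line; filled points are replicate 1 and open points replicate 2. In *rny1*Δ the rapamycin vacuole points lie above the rapamycin lysate points for all 10 mRNAs, while in *rny1*Δ *atg2*Δ only *ARO4*, *ARO1*, *TRP3* and *TRP5* show both vacuole points above both lysate points. The share of all mRNAs tested with such separation was not counted.

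The mRNAs called enriched in *rny1*Δ *atg2*Δ were those of the longest coding sequences, *ARO1* (1579 counted codons) and *TRP5* (698). Across all 5753 mRNAs tested, Spearman's rho between counted codons and enrichment was 0.14 in *rny1*Δ *atg2*Δ and -0.48 in *rny1*Δ, and among the 10 it was 0.76 and 0.07. These are relations across mRNAs measured in the same libraries, not across replicates. The median enrichment of the 486 mRNAs with at least 1000 counted codons was 0.20 in *rny1*Δ *atg2*Δ and -0.57 in *rny1*Δ, beside 1.46 and 0.54 for *ARO1*. With correction for gene length *ARO1* was called in both strains (1.14 in *rny1*Δ, edgeR adjusted p = 0.000167, and 1.28 in *rny1*Δ *atg2*Δ, edgeR adjusted p = 0.000221) and the difference between strains came to -0.13 (edgeR adjusted p = 0.747). *TRP5* was then called in *rny1*Δ (1.02) and not in *rny1*Δ *atg2*Δ (0.95). The same correction moved the calls over all mRNAs in *rny1*Δ from 697 enriched and 459 depleted to 303 and 448, and the calls for the difference from 533 higher and 462 lower to 119 and 209.

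Without dividing by the growing ratio, which rests on 1 library per fraction, the vacuole to total ratio after rapamycin in *rny1*Δ was called for 6 of the 10, where 11.2% of all mRNAs tested were called higher and 7.11% lower. These were *ARO2* (1.98 ± 0.13), *TRP4* (1.89 ± 0.13), *TRP3* (1.51 ± 0.12), *ARO7* (1.27 ± 0.19), *TRP5* (1.12 ± 0.12) and *TRP2* (1.11 ± 0.12). Leaving out single libraries gave 4 to 6, with *TRP2* (0.986 and 0.98) and *TRP5* (0.97 and 0.999) below the limit without replicate 2 of the lysates or replicate 1 of the vacuole fractions, and *ARO7* had 0.914 with correction for gene length. All 10 ratios were positive, and their median of 1.11 stood beside 0.04 over all mRNAs tested. In growing cells the ratios of the 10 ran from -0.28 to 0.33 in *rny1*Δ and from -0.30 to 0.29 in *rny1*Δ *atg2*Δ, with *ARO3* lowest and *TRP5* highest in both. Together the 10 mRNAs took 0.268% of gene counts in the growing *rny1*Δ lysate, 0.171% and 0.144% in its rapamycin lysates and 0.36% and 0.338% in its rapamycin vacuole fractions. In *rny1*Δ *atg2*Δ the rapamycin lysates held 0.129% and 0.146% and the rapamycin vacuole fractions 0.221% and 0.226%.

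The level in the cell after 3 h of rapamycin, read in total lysates, fell for the same 4 mRNAs in both strains. In *rny1*Δ the log2 changes were -2.79 ± 0.19 for *ARO7*, -2.44 ± 0.15 for *ARO2*, -2.29 ± 0.15 for *ARO4* and -1.20 ± 0.15 for *TRP4*, and 22.9% of all mRNAs tested were called lower in this comparison. In *rny1*Δ *atg2*Δ the values were -2.89 ± 0.15 for *ARO2*, -2.47 ± 0.15 for *ARO4*, -2.20 ± 0.16 for *ARO7* and -1.56 ± 0.15 for *TRP4*, beside 23.9% of all mRNAs tested. *TRP2* (-0.98 ± 0.14 in *rny1*Δ *atg2*Δ) was close to the limit and was called there with the replicate block (-1.13), with growing libraries pooled (-1.01), without replicate 2 of the lysates (-1.12) and with at least 10 counts in every library (-1.17). The median of the 10 was -0.80 in *rny1*Δ and -0.90 in *rny1*Δ *atg2*Δ, against -0.05 and -0.02 over all mRNAs tested. *ARO3* had -0.01 ± 0.12 and -0.12 ± 0.12.

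*TRP1* rose in *rny1*Δ *atg2*Δ lysates by 1.09 ± 0.13 (edgeR adjusted p = 7.07e-07), where 23.4% of all mRNAs tested were called higher. In *rny1*Δ its value of 0.97 ± 0.14 fell just short of the size threshold. There 0 of the 10 were called higher by edgeR, beside 21.3% of all mRNAs tested. An edgeR unadjusted p under 0.05 in either direction was found for 9 of the 10 and for 4466 of all 5753 mRNAs tested. DESeq2 called *TRP1* there (1.03, DESeq2 adjusted p = 2.89e-06), as did edgeR with DESeq2's size factors (1.03), with correction for gene length (1.16) and without rapamycin total replicate 2 (1.06). In the vacuole fraction of *rny1*Δ *TRP1* rose by 1.47 ± 0.13, while *ARO7* fell by 1.48 ± 0.16 and *ARO4* by 1.24 ± 0.15. There 21% of all mRNAs tested were called higher and 17.4% lower.

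Between the strains, 0 of the 10 were called in total lysates after rapamycin by edgeR or DESeq2. Of all mRNAs tested 0.365% were called higher and 0.174% lower in *rny1*Δ *atg2*Δ. An edgeR unadjusted p under 0.05 was found for 6 of the 10 and for 1407 of all 5753 mRNAs tested. The values furthest from 0 were 0.75 ± 0.19 for *ARO7*, higher in *rny1*Δ *atg2*Δ (edgeR adjusted p = 0.021), and -0.49 ± 0.13 for *ARO2* (edgeR adjusted p = 0.0255).

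*ARO3* and *ARO4* are counted over the same length, 361 codons, so their ratio can be read within each library. The *ARO4* to *ARO3* ratio was 2.64 in the growing lysate and 2.69 in the growing vacuole fraction of *rny1*Δ, and 2.54 and 2.74 in those of *rny1*Δ *atg2*Δ. After rapamycin it was 0.58 and 0.503 in *rny1*Δ lysates, 0.461 and 0.535 in *rny1*Δ *atg2*Δ lysates, 0.70 and 0.689 in *rny1*Δ vacuole fractions and 0.82 and 1.00 in *rny1*Δ *atg2*Δ vacuole fractions. In WT mRNA it was 1.87 and 1.70 in growing cells, 0.542 at 1 h, 0.985 at 2 h and 0.975 at 3 h. Growing RNA-Seq libraries, all at or above 1.70, did not overlap with rapamycin RNA-Seq libraries, all at or below 1.00, so that *ARO4* no longer exceeded *ARO3* in any of them. In WT footprints the ratio was 2.37 and 1.88 in growing cells and 0.714, 1.37 and 1.22 at 1 h, 2 h and 3 h.

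**Figure D3:**
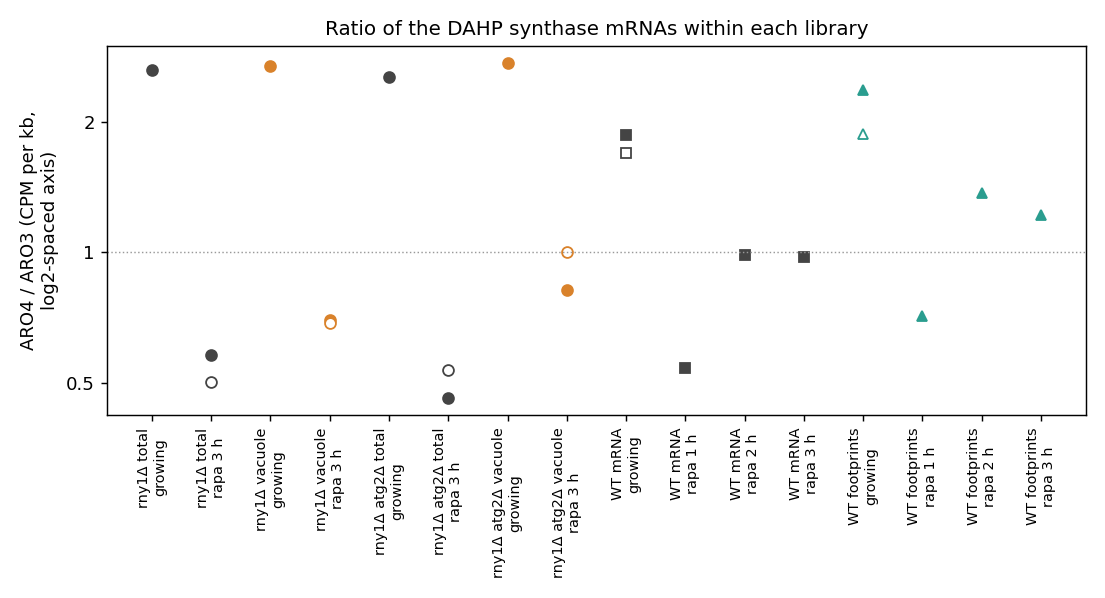
Ratio of *ARO4* to *ARO3* in CPM per kb within each library (axis spaced by log2; dotted line at 1), in lysates (grey circles), vacuole fractions (orange circles), WT mRNA (grey squares) and WT footprints (green triangles); open symbols are replicate 2. Growing RNA-Seq libraries lie between 1.70 and 2.74 and rapamycin RNA-Seq libraries between 0.461 and 1.00.

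In cells labelled WT the mRNAs were followed over 3 h of rapamycin, with 1 library at each time and the spread taken from the 2 growing libraries, which all 3 times share as control. At 1 h *ARO4* had 233 CPM against 889 and 895 CPM in growing cells and fell by 1.94 ± 0.13 (edgeR adjusted p = 6.48e-10). *ARO7* had 12.9 CPM against 36.3 and 34.1 CPM and fell by 1.45 ± 0.16 (edgeR adjusted p = 5.88e-07). These 2 of the 10 were called lower at 1 h, where 16.3% of all mRNAs tested were. By edgeR or DESeq2 0 were called higher, where 14.5% were. An edgeR unadjusted p under 0.05 in either direction was found for 7 of the 10 and for 4103 of all 5927 mRNAs tested. *ARO2*, with 398 CPM after 765 and 761 CPM, came to -0.94 ± 0.12.

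All 5 mRNAs of the tryptophan branch had a positive value at 1 h, none of them past the size threshold. *TRP3* had 287 CPM against 179 and 194 CPM in growing cells (0.62 ± 0.11) and *TRP2* 325 CPM against 205 and 222 CPM (0.61 ± 0.11). *TRP1* had 0.40 ± 0.12, *TRP5* 0.20 ± 0.12 and *TRP4* 0.16 ± 0.11. *ARO1*, with 1259 CPM after 872 and 917 CPM, had 0.49 ± 0.12.

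By 2 h, 4 of the 10 were called lower, beside 14.5% of all mRNAs tested, and by 3 h 5 of the 10, beside 15.9%. At either time 0 were called higher by edgeR or DESeq2, beside 11.2% and 11.7%. An edgeR unadjusted p under 0.05 in either direction was found for 7 and 10 of the 10. Over all 5927 mRNAs tested it was found for 3953 and 4048. *ARO3*, at 476 and 527 CPM in growing cells and 429 CPM at 1 h, had 201 CPM at 2 h and 134 CPM at 3 h, and fell by 1.32 ± 0.13 and 1.90 ± 0.13. *ARO2* had 244 and 171 CPM and fell by 1.64 ± 0.13 and 2.16 ± 0.13. *ARO4* had 198 and 131 CPM, a fall of 2.18 ± 0.13 and 2.77 ± 0.14. *ARO7* stayed low with 14.0 and 14.1 CPM, which is -1.33 ± 0.15 and -1.32 ± 0.16. *TRP4*, at 126 and 131 CPM in growing cells, had 83.5 CPM at 2 h and 53.4 CPM at 3 h, where it fell by 1.27 ± 0.12.

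At 3 h the remaining tryptophan genes were below growing cells but under the size threshold, with -0.85 ± 0.12 for *TRP2*, -0.66 ± 0.12 for *TRP3* and -0.78 ± 0.13 for *TRP5*, while *TRP1* had 58.3 CPM against 48.9 and 45.4 CPM (0.31 ± 0.12). *ARO1* had 682 CPM and -0.39 ± 0.13. The median of the 10 was 0.18 at 1 h, -0.47 at 2 h and -1.06 at 3 h, against 0.01, 0.02 and -0.01 over all mRNAs tested. Where WT RNA-Seq and footprints shared one fit, and so one estimate of the spread, 0 of the 10 were called at any time, and *ARO4* had edgeR adjusted p-values of 0.0173, 0.0206 and 0.0146. The values of *ARO3* at 3 h of rapamycin, -1.90 in WT cells and -0.01 in *rny1*Δ lysates, come from tables normalised separately, with other library preparation and counting, and their difference was not tested.

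**Figure D4:**
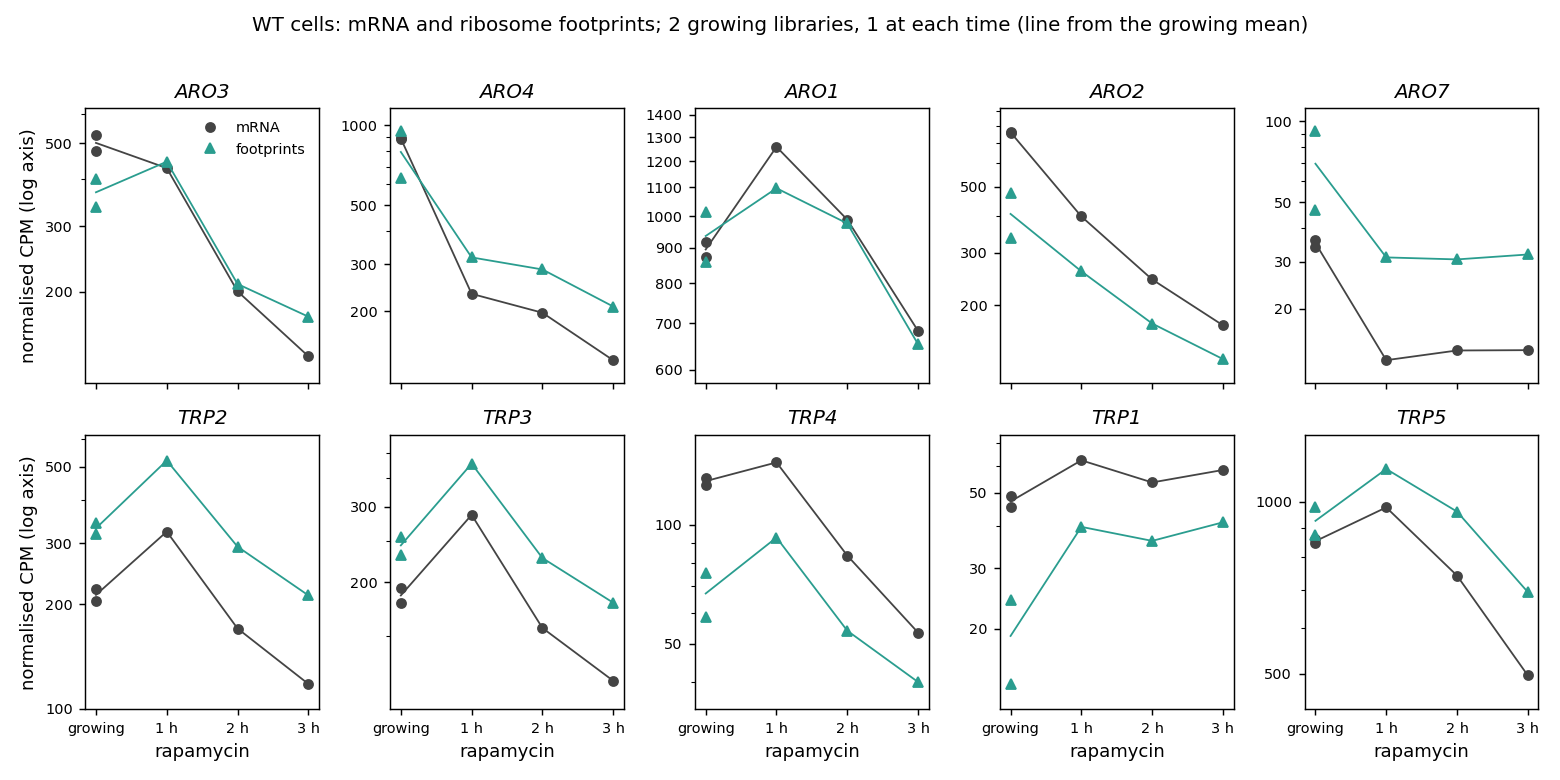
Level of each mRNA (grey circles) and its ribosome footprints (green triangles) in WT cells (TMM-normalised CPM, log axis, a scale of its own in each panel), for the 2 growing libraries and the single libraries at 1 h, 2 h and 3 h of rapamycin; lines start at the growing mean. *ARO4*, *ARO2* and *ARO7* are below both growing libraries at every time in both assays, while *ARO1*, *TRP2*, *TRP3*, *TRP4* and *TRP5* peak at 1 h in both. The shares of all mRNAs tested with these orders were not counted.

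Ribosome footprints, the mRNA stretches that ribosomes shield from nuclease, were less alike between the 2 growing libraries, which differed by up to 0.99 on the log2 scale for these genes, against 0.17 for mRNA. Of the 10, 0 were called by edgeR or DESeq2 at 1 h, 2 h or 3 h. An edgeR unadjusted p under 0.05 was found for 2, 2 and 3 of them, beside 1441, 937 and 959 of all 5625 mRNAs tested. Over all mRNAs tested 0.16% were called higher and 5.92% lower at 1 h, and 0% in either direction at 2 h and at 3 h. *ARO4* footprints were 953 and 634 CPM in growing cells and 319, 287 and 208 CPM at the 3 times, with -1.32 ± 0.58, -1.47 ± 0.59 and -1.93 ± 0.60. *TRP1* footprints were 13.7 and 24.3 CPM (52 and 59 counts) in growing cells and 39.7, 36.1 and 41.0 CPM under rapamycin, all above both growing libraries (1.08 ± 0.43, 0.94 ± 0.44 and 1.12 ± 0.43). *TRP2* footprints went from 343 and 320 CPM to 520 CPM at 1 h and then to 294 and 213 CPM, and those of *TRP3* from 256 and 232 CPM to 378, 228 and 179 CPM.

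Ribosome association is the log2 level of footprints minus that of mRNA. In growing cells it was positive in both libraries for *ARO7* (1.60 and 0.67), *TRP2* (1.00 and 0.75), *TRP3* (0.77 and 0.47), *ARO1* (0.47 and 0.12) and *TRP5* (0.44 and 0.26). It was negative in both for *TRP1* (-1.56 and -0.68), *TRP4* (-0.48 and -0.95) and *ARO2* (-0.43 and -0.97). *ARO3* and *ARO4* lay on either side of 0. In the fit of all WT libraries *ARO7* had 1.24 ± 0.33 (edgeR adjusted p = 0.0395) and *TRP1* -1.11 ± 0.28 (edgeR adjusted p = 0.0344). Of the 10, 6 had an edgeR unadjusted p under 0.05, beside 2888 of all 5936 mRNAs tested. By edgeR 0 of the 10 were called, where 3.59% of all mRNAs tested were called higher and 6.64% lower. DESeq2 called 0 as well. Without growing footprint replicate 2, *ARO7* (1.64) and *TRP1* (-1.53) were both called.

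The change of ribosome association under rapamycin was not called for any of the 10 at 1 h, 2 h or 3 h by edgeR or DESeq2, and 0 of them had an unadjusted p under 0.05 at any time. Of all 5936 mRNAs tested 0% were called, and 250, 252 and 570 had an edgeR unadjusted p under 0.05 at the 3 times. Without 1 of the growing footprint libraries the calls over all mRNAs reached up to 137 higher and 327 lower at 1 h, 147 and 316 at 2 h and 345 and 370 at 3 h. The median of the 10 was 0.11, 0.19 and 0.34, beside -0.14, -0.12 and -0.05 over all mRNAs tested, and 6, 9 and 9 of the 10 were positive. At 3 h the values ran from -0.23 ± 0.40 for *ARO1* to 0.73 ± 0.46 for *ARO4*. Standard errors of 0.34 to 0.58 limit what these libraries can show. Without 1 of the growing footprint libraries single calls appeared, *TRP1* at 2 h and 3 h (1.11 and 1.15 without replicate 2) and *ARO4* at 3 h (1.07 without replicate 1).

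A second list held 12 other genes around the pathway. These were *TYR1* and *PHA2* of the last steps to phenylalanine and tyrosine, and the aromatic aminotransferase genes *ARO8* and *ARO9*. For the use of aromatic amino acids it held *ARO10* and the transcriptional activator gene *ARO80*. The rest were *ABZ1* and *ABZ2* (p-aminobenzoate synthesis), *BNA2* (tryptophan breakdown), *TAT1* and *TAT2* (permeases) and *GCN4*. In *rny1*Δ 1 of these 12 was called vacuole enriched, *ARO10* (1.44 ± 0.17, edgeR adjusted p = 5.69e-06), beside 12.1% of all mRNAs tested. In *rny1*Δ *atg2*Δ 0 were called enriched by edgeR or DESeq2, beside 2.26%. There 1 of the 12 had an edgeR unadjusted p under 0.05, beside 1651 of all 5753 mRNAs tested. *ARO10*, for phenylpyruvate decarboxylase, had 301 and 268 CPM in rapamycin vacuole fractions and 101 and 103 CPM in rapamycin lysates of *rny1*Δ. The difference between strains was called for *ARO10* (1.27 ± 0.25) and for the aminotransferase gene *ARO9* (1.16 ± 0.24), beside 9.26% of all mRNAs tested. Without replicate 1 of the rapamycin-treated *rny1*Δ *atg2*Δ vacuole fraction neither was called (1.20 and 1.11, edgeR adjusted p = 0.018 and 0.0196), and with DESeq2 *ARO9* was not (1.08, adjusted p = 0.0105). The median enrichment of the 12 in *rny1*Δ was 0.51 and ran from -0.73 to 1.44.

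In WT mRNA at 1 h, *ARO10* rose by 3.79 ± 0.12 from 65.4 and 64.1 CPM to 894 CPM, and *ARO9* by 2.71 ± 0.11 from 117 and 107 CPM to 732 CPM. *BNA2* (1.84 ± 0.20) and *ARO80* (1.20 ± 0.15) rose as well, so that 4 of the 12 were called higher and 2 lower, beside 14.5% and 16.3% of all mRNAs tested, and 2 and 1 with both WT assays in one fit. The permease mRNAs *TAT1* (-3.93 ± 0.15) and *TAT2* (-1.5 ± 0.13) fell. By 3 h *ARO10* was at 129 CPM and *ARO9* at 91.6 CPM, neither called, while *BNA2* remained higher (1.61 ± 0.21) and *ARO8*, for the other aromatic aminotransferase, fell by 1.47 ± 0.13. At 3 h 1 of the 12 was called higher and 3 lower, beside 11.7% and 15.9% of all mRNAs tested, and 0 either way with both WT assays in one fit.

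Over the 12 libraries of the vacuole experiment, the likeness of each mRNA to the mean of the other 9 was read as Pearson's r of log2 CPM. *TRP2* (0.98), *TRP4* (0.94), *ARO2* (0.94) and *TRP3* (0.89) followed the others most closely, and *TRP1* (-0.37), *ARO1* (0.14) and *ARO3* (0.42) least. *ARO4* had 0.77, *ARO7* 0.67 and *TRP5* 0.58. Of 5251 other mRNAs with a mean of at least 100 counts, the 3 most like the mean of the 10 were *IPP1* (r = 0.99), *EMP24* (r = 0.99) and *HOM3* (r = 0.99). These values describe 12 libraries that share treatments, fractions and depth.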

How the data were processed

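The deposited values are counts of reads per gene, made by the authors. The submitters' processing notes name CASAVA 1.8, Bowtie2 2.1.0, TopHat2 2.0.9, HTSeq 0.6.1, STAR 2.7.0a and the sacCer3 genome. Vacuole experiment reads were mapped and counted per gene (TopHat2, HTSeq). Footprint reads were mapped with STAR and their PCR duplicates were removed by molecular identifiers, while the mapping of WT RNA-Seq reads is not given separately in the sources used here. A column of the deposited WT files gives the number of codons counted per gene, used here as counted coding length. The files of the vacuole experiment hold no such column, so the same lengths were used for them.

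Protein-coding genes with at least 10 counts in all were kept, library sizes were set on them, and TMM normalisation and edgeR's quasi-likelihood test (edgeR 4.0.16, limma 3.58.1, R 4.3.3) were applied with Benjamini-Hochberg adjustment over all genes tested, 5753 in the vacuole experiment, 5927 for WT mRNA, 5625 for footprints and 5936 for both WT assays together. These fits had 4, 1, 1 and 2 residual degrees of freedom. Entries naming no gene (no feature, ambiguous or not unique) held 62.6% to 79.5% of counts in the vacuole experiment libraries and were left out. Ribosome association came from 1 model over both assays. A gene was called at a log2 change of at least 1 in size with an adjusted p under 0.01. Levels are TMM-normalised CPM. The alternatives were DESeq2 1.42.0, its size factors in edgeR, other filters on low counts, correction for gene length, other sets of libraries, a replicate block and leaving out single libraries.

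The text names the 10 genes by their systematic names, 12 other genes around the pathway, the genes that check labels, and the 3 genes most like the 10. The genes and lists were chosen with earlier results of these data known. Replicate numbers do not say which lysate and vacuole fraction came from 1 culture. Gene symbols and R64 coordinates come from the RefSeq annotation. All 10 matched by locus tag, and none overlaps another annotated gene. Scripts were tested on simulated data.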

Additional observations from a re-analysis of the deposited data

Results flagged for a closer look

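The change in vacuolar enrichment between strains was tested as an interaction term, and it was called for 4 of the 10 genes and for 2 of the 12 other pathway genes, all higher in *rny1*Δ, where 9.26% of all mRNAs tested were called higher and 8.03% lower. Without replicate 1 of the rapamycin-treated *rny1*Δ *atg2*Δ vacuole fraction 0 of the 10 and 0 of the 12 were called. The difference, *rny1*Δ minus *rny1*Δ *atg2*Δ, was 2.039 on the log2 scale for *ARO2*, 2.018 for *TRP4*, 1.617 for *ARO7* and 1.5 for *TRP3*. For *TRP4* and *ARO2* the enrichment was close to 0 in *rny1*Δ *atg2*Δ (-0.003 and -0.06), while *ARO7* rests on 2 counts in one of the *rny1*Δ *atg2*Δ vacuole libraries. For *ARO10* the difference was 1.266 and for *ARO9* 1.163, between an enrichment of 1.44 and 0.17 for *ARO10* and of 0.81 and -0.36 for *ARO9*. No group held enough libraries for a test of outlying samples.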

How the results depend on the processing

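Of 2444 values of single genes under 24 alternatives, 2310 kept their call or lack of one, or stayed within the replicate spread where no test was possible. A further 46 lost and 23 gained a call, 65 untested values moved past that spread, and 0 called values reversed. Direction was not compared for values that were not called. *ARO2*, *TRP3* and *TRP4* stayed called for enrichment in *rny1*Δ in all alternatives where they were tested, and 4 to 6 of the 10 were called there.

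In *rny1*Δ *atg2*Δ, 1 of the 10 in place of 2 was called enriched with DESeq2's size factors, with DESeq2, with at least 10 counts in every library, with all genes, with correction for gene length, with 1 strain only and with growing libraries pooled, and leaving out single libraries gave 1 to 2. *ARO1* was the one kept. For the difference between strains single libraries left out gave 0 to 5 in place of 4, and 0 without replicate 1 of the rapamycin-treated *rny1*Δ *atg2*Δ vacuole fraction, where the lone shallow library is assumed to vary like the other groups. Total lysates of *rny1*Δ had 1 mRNA called higher, *TRP1*, in place of 0 with DESeq2's size factors, DESeq2 and correction for gene length, and 0 to 1 with single libraries left out. With at least 10 counts in every library, which leaves *ARO7* and *TRP4* untested, *TRP1* lost its call in *rny1*Δ *atg2*Δ lysates (0 in place of 1) and 1 in place of 2 was called lower in *rny1*Δ vacuole fractions. With both WT assays in one fit 0 of the 10 were called lower at 1 h, 2 h and 3 h, in place of 2, 4 and 5. Ribosome association gave 0 to 1 called higher at 2 h, at 3 h and in growing cells, and 0 to 1 lower in growing cells, with single libraries left out.

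Deviations of same-numbered libraries correlated at 0.191 (*rny1*Δ), 0.0515 (*rny1*Δ *atg2*Δ) and 0.0961 (WT), which shows neither that replicate numbers pair the samples nor that they do not. For WT the SD of replicate differences was 0.867 for footprints and 0.27 for mRNA, and such noise can hide a pairing. The fit of both WT assays treated libraries from the same lysate as independent. The replicate block gave 1 call in place of 0 for *TRP1* in *rny1*Δ lysates (1.02), added *TRP2* to the calls in *rny1*Δ *atg2*Δ lysates (-1.13) and gave 1 in place of 0 for *ARO7* ribosome association in growing cells (1.16).

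Over all genes, DESeq2's size factors moved the calls for enrichment in *rny1*Δ from 697 higher and 459 lower to 584 and 553, the calls for the difference from 533 and 462 to 454 and 576, and those for ribosome association in growing cells from 213 and 394 to 155 and 466. Correction for gene length gave 302 and 490 in place of 646 and 409 for the vacuole to total ratio and 90 and 89 in place of 130 and 84 for enrichment in *rny1*Δ *atg2*Δ. Over all alternatives the count for the difference ran from 107 to 794 higher and from 151 to 599 lower, lowest without replicate 1 of the rapamycin-treated *rny1*Δ *atg2*Δ vacuole fraction. For WT mRNA at 3 h it ran from 0 to 781 higher and from 0 to 1048 lower, with 0 where both assays shared one fit. WT footprints at 1 h ran from 0 to 148 higher and from 0 to 527 lower, beside 9 and 333. The causes of these shifts were not tested. Depth limits *ARO7* and *TRP4* in the shallow library, and each growing state of the vacuole experiment rests on 1 library per strain and fraction.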

Other observations

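*GCN4*, whose mRNA is known to be held back from translation by upstream open reading frames in well-fed cells, had the lowest ribosome association in growing cells of the 22 genes listed around the pathway. It had 561 and 600 CPM of mRNA against 101 and 111 CPM of footprints in growing WT cells, an association of -2.21 ± 0.21 (edgeR adjusted p = 0.00298). Without growing RNA-Seq replicate 2 *GCN4* had -2.16 and lost this call. At 1 h of rapamycin its footprints reached 522 CPM and its mRNA 920 CPM, and at 2 h and 3 h footprints were at 172 and 99.1 CPM. The footprint value at 1 h was 2.30 ± 0.45 on the log2 scale (edgeR adjusted p = 0.0129), and the change in association at 1 h was 1.46 ± 0.35 (edgeR adjusted p = 0.916), neither of them called. The footprint value was called by DESeq2 (2.27, DESeq2 adjusted p = 0.00167), with its size factors, other low-count filters, all genes or both WT assays in one fit. With correction for gene length it was not called. The change in association was called without growing footprint replicate 1 (1.40) or 2 (1.52). *ARO1*, *TRP2*, *TRP3*, *TRP4* and *TRP5* also had their highest mRNA and footprint values at 1 h. So did *ARO8*, *ARO9*, *ARO10* and *ARO80*, and no link between these patterns was tested. Each time rests on 1 library per assay, and the share of all mRNAs tested with such a peak was not counted.

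*TRP2* and *TRP3* encode the subunits of anthranilate synthase. The *TRP3* to *TRP2* ratio in CPM per kb was 0.77 in the growing *rny1*Δ lysate and 0.865 and 0.811 in the rapamycin lysates. In rapamycin vacuole fractions it was 1.12 and 1.11 in *rny1*Δ, above every other library of that strain, and 0.877 and 0.905 in *rny1*Δ *atg2*Δ. In WT mRNA it ran from 0.915 to 1.05, and in WT footprints from 0.759 to 0.884. These ratios were not tested.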
